A study of Homo sapiens with 4 samples.

Results

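The 5' UTR sites of C643 cells were the m6A sites that lay, on the same strand, in the 5' UTR of the Ensembl canonical transcript of a protein-coding gene with at least 2 exons. They made up 378 of the 18789 listed sites (2.01%, 95% Wilson interval 1.82 to 2.22%) and fell in 240 genes. Another 4 sites also met this description but lay in the coding sequence (CDS) of an overlapping gene and were assigned there, which would otherwise give 382. C643 cells were established from an anaplastic carcinoma of the thyroid. They were wild-type and untreated, and polyadenylated RNA of 3 biological replicates was subjected to miCLIP2, in which fragmented RNA is crosslinked to an anti-m6A antibody and sequenced so that reads end at the modified nucleotide. Replicate 1 was sequenced as 2 technical libraries, and all libraries were merged by the authors into 1 list of sites, each with a prediction score from the classifier m6Aboost. None of the 7 thyroid follicular cell markers examined, among them TG and TSHR, carried a listed site. Of the 18916 protein-coding genes whose canonical transcript had at least 2 exons, only 3632 held a listed exonic site. A missing site does not show whether a marker was expressed. The list holds no expression values, so the labelled cell type could not be checked.

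N6-methyladenosine is installed on nascent mRNA by the METTL3–METTL14 methyltransferase, mostly at DRACH motifs, in which the methylated A is preceded by A, G or T and then A or G, and followed by C and then A, C or T. It is best known from long internal exons and the surroundings of the stop codon, while exon junction complexes keep the modification away from exon ends. In 5' UTRs, m6A has been studied for its part in cap-independent translation initiation, and A at the transcript start can carry a related modification, m6Am, that m6A antibodies also bind.

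The sites nearest the start codon show how close the modification call could lie to the point where translation begins. In the following sequences (GRCh38, 21 nt of the sense strand with the listed A in the middle), capitals mark the DRACH pentamer, and the start codon atg directly follows it, except in FAM3A, where the last A of the pentamer is the A of the start codon.

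TNFRSF6B, chr20:63696755-63696775, plus strand: tccagcaaGGACCatgagggc
HCFC1, chrX:153970833-153970853, minus strand: ctttcccgGAACTatggcttc
SIPA1L3, chr19:38081553-38081573, plus strand: gtgcccgtGGACTatgaccac
FAM3A, chrX:154515764-154515784, minus strand: ggagaagtGGACAtgaggttg

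At the opposite end of the 5' UTR, some sites were listed at the very start of the annotated transcript. The following sequences are the initial 21 nt of the canonical transcript, with the listed A as the capital letter.

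TAX1BP3, chr17:3668558-3668578, minus strand: Actctgctgccggcttctcgg
UBL5, chr19:9827918-9827938, plus strand: aActgcgaccggggttcagcg
EXOSC5, chr19:41397339-41397359, minus strand: gAcaactgcagccgcacgtgg
COMMD9, chr11:36289404-36289424, minus strand: gActtcggcaagatggctgcc
TNFRSF6B, chr20:63696652-63696672, plus strand: ggActtgggcggcccctccgc

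The 5 sites of SLC35A4, a nucleotide sugar transporter family member, are shown because all of them lay inside upstream open reading frames of exon 3. Capitals again mark the pentamer.

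SLC35A4, chr5:140566718-140566738, plus strand: acattaagGGACTatttgcag
SLC35A4, chr5:140566804-140566824, plus strand: tcaggtggAGACActttatct
SLC35A4, chr5:140566964-140566984, plus strand: tcgccccaAGACTgtggcttc
SLC35A4, chr5:140566979-140566999, plus strand: ggcttcaaGGACCaccagccc
SLC35A4, chr5:140567008-140567028, plus strand: tcaagcccTGACTgtggagtt

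The next 5 sequences are shown for their scores and spacing. LARP1 and SNX33 had high-scoring sites, the STK11 sequence is the highest scoring in the 5' UTR with the most sites, and the TGFB1 pair lies 9 nt apart. Capitals mark the pentamer.

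LARP1, chr5:154755516-154755536, plus strand: ggaggcctGGACTgcagagtg
SNX33, chr15:75648983-75649003, plus strand: gagagattGAACTgtgtaagc
STK11, chr19:1206863-1206883, plus strand: tcacccgcGGACTcagggctg
TGFB1, chr19:41353623-41353643, minus strand: gaggaaaaAAACTtttgagac
TGFB1, chr19:41353614-41353634, minus strand: aacttttgAGACTtttccgtt

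To ask how often a motif of the 5' UTR was listed, every DRACH motif in the exons of the 3632 canonical transcripts with a listed exonic site was counted as listed or not. Across all regions, 15485 of 206950 motifs were listed (7.48%). In 5' UTRs the share was lower, with 358 of 7953 motifs (4.50%, 95% Wilson interval 4.07 to 4.98%), compared with 6.14% in the CDS and 9.33% in 3' UTRs. Within the same transcripts, a 5' UTR motif had lower odds of being listed than a CDS motif (odds ratio 0.559, 95% interval 0.499 to 0.627, n = 203635 motifs, adjusted p = 9.50e-23, conditional logistic regression with the transcript as stratum) and than a 3' UTR motif (odds ratio 0.265, 0.236 to 0.297, adjusted p = 4.94e-112). With the junction distance and the GGACT pentamer also in the model, the odds ratio against the CDS was 0.248 and that against the 3' UTR 0.416. At a score of at least 0.7 they were 0.276 and 0.0858, with the longest spliced transcripts 0.345 and 0.175, and in a logistic regression clustered by transcript 0.720 and 0.458, each with an interval below 1. The classifier used region and sequence as features. These contrasts therefore describe which motifs were listed and cannot separate methylation from the classifier's use of region. The list pools the replicates, so the intervals cover counting error over motifs and not the variation between cultures. An unlisted motif may lie in RNA with too few reads for a peak, since the depth per site is unknown.

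Distance to the nearest exon junction separated listed from unlisted motifs less in 5' UTRs than in the CDS. Over 100 nt from a junction, 6.38% of 5' UTR motifs (276 of 4324) and 18.3% of CDS motifs were listed. At most 100 nt from a junction, the shares were nearly alike, with 2.26% in 5' UTRs (82 of 3629) and 2.43% in the CDS. The product of region and junction distance had an odds ratio of 0.252 (95% interval 0.193 to 0.328, n = 203635 motifs, adjusted p = 1.05e-23, conditional logistic regression), meaning that the odds gained by lying far from a junction were smaller in 5' UTRs. It was 0.426 at a score of at least 0.7 and 0.385 with a limit of 50 nt. The same order was seen at GGACT, the pentamer most often listed, of which 22.8% in 5' UTRs and 53.2% in the CDS were listed over 100 nt from a junction. In 3' UTRs, where few motifs lie close to a junction, the share was 9.25% far from and 15.6% close to one. Region was an input of the classifier, so these contrasts between regions describe which motifs were listed.

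**Figure D1:**
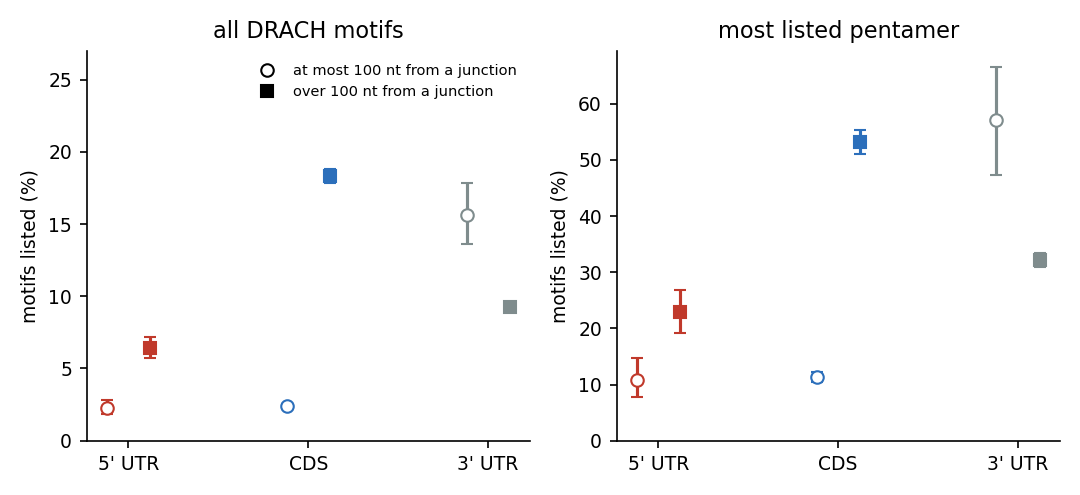
Share of motifs listed (%, y axis, with 95% Wilson intervals) in the 5' UTR, the CDS and the 3' UTR of all host transcripts, for all DRACH motifs (left) and for GGACT (right); the y axes differ. Open circles are motifs at most 100 nt from an exon junction and filled squares are motifs farther away; far from junctions, 6.38% of 5' UTR motifs and 18.3% of CDS motifs were listed.

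Among motifs over 100 nt from a junction, the rise from 5' UTR to CDS was gradual across the start codon. Of these motifs, 7.27% were listed in the last 100 nt of the 5' UTR (93 of 1280) and 10.3% in the initial 100 nt of the CDS (115 of 1114). Farther into the CDS, the share was 15.1% at 100 to 199 nt and 21.5% at 400 to 499 nt. Upstream, it showed no steady trend and ranged from 3.70% (3 of 81) to 11.2% (19 of 169, 95% Wilson interval 7.32 to 16.9%) in windows of 100 nt, and was 4.99% (3.62 to 6.83%) at 201 to 300 nt before the start codon. Over all DRACH motifs, the share changed little at the start codon, with 4.36% in the last 100 nt before it and 4.67% in the initial 100 nt of the CDS. That share was 6.81% at 400 to 499 nt of the CDS and 9.45% (19 of 201) at 501 to 600 nt before the start codon. The windows pool different transcripts. Motifs of the CDS that lie in exon 1 were listed at 9.47% (415 of 4381), against 4.52% for 5' UTR motifs of exon 1.

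**Figure D2:**
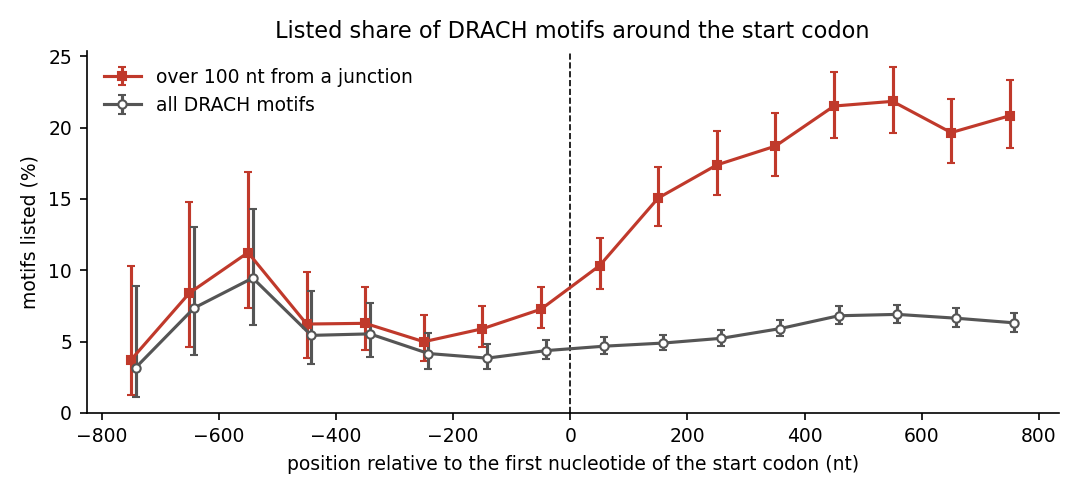
Share of DRACH motifs listed (%, y axis, with 95% Wilson intervals) in windows of 100 nt around the start codon (x axis in nt, negative in the 5' UTR, dashed line at the start codon) in all host transcripts. Red squares are motifs over 100 nt from a junction and grey circles all motifs; the red share goes from 7.27% just before the start codon to 21.5% at 400 to 499 nt of the CDS.

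Within 5' UTRs, most sites were in exon 1, although most motifs were too. Exon 1 held 270 of the 378 sites (71.4%), exon 2 held 86 and later exons 22. The median site lay 269 nt from the transcript start (quartiles 116 and 523 nt), 124.5 nt from the start codon (47 and 300.0 nt) and 250.5 nt from the nearest junction. Of the sites, 170 lay within 100 nt of the start codon, 87 within 100 nt of the transcript start and 289 over 100 nt from a junction. Neighbouring sites of the same 5' UTR were a median of 72 nt apart, and 56 of 138 neighbouring pairs were at most 50 nt apart. These gaps were not compared with those between DRACH motifs, so they do not show whether sites cluster. For 6 of the sites another annotated transcript had coding sequence there and for 8 a 3' UTR, and the remaining 364 sites lay in neither in any transcript.

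The positions were then set against the unlisted DRACH motifs of the same 5' UTRs. Coverage per motif is unknown, and where transcripts of a gene start at different positions, motifs of the same annotated 5' UTR need not lie in the same RNAs. In the 235 transcripts with a 5' UTR site and DRACH motifs there, 358 of 1605 motifs were listed. The stratified fits could use only transcripts with both listed and unlisted motifs. This left 1554 motifs of 202 transcripts, of which 329 were listed. Listed motifs were more often within 100 nt of the start codon (odds ratio 2.09, 95% interval 1.51 to 2.89, n = 1554 motifs, adjusted p = 1.40e-05, conditional logistic regression). In transcripts with a 5' UTR site, the listed share fell from 37.7% at 1 to 50 nt from the start codon (95 of 252) to 31.5% at 51 to 100 nt, 15.9% at 201 to 400 nt and 11.1% beyond 800 nt (9 of 81). These transcripts were selected for holding a site. That choice sets the level of these shares and can also shape their fall with distance, so the fall is not separate evidence. Pooled over the 5' UTRs of all host transcripts, the shares were 4.50% at 1 to 50 nt, 4.17% at 51 to 100 nt and 4.67% at 201 to 400 nt, so the gradient seen in transcripts with a site was not seen when all host transcripts were pooled.

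Compared with unlisted motifs of the same 5' UTR, listed motifs were less often within 100 nt of the transcript start (odds ratio 0.338, 95% interval 0.213 to 0.538, n = 1554 motifs, adjusted p = 9.06e-06, conditional logistic regression). Over all host transcripts, 2.94% of motifs at 1 to 50 nt (47 of 1597) and 2.22% at 51 to 100 nt were listed, against 9.04% at 401 to 800 nt (90 of 996) and 11.8% beyond 800 nt (34 of 287). In transcripts with a 5' UTR site the shares did not follow this order, with 28.1% at 1 to 50 nt (47 of 167), 18.4% at 51 to 100 nt, 23.0% at 401 to 800 nt and 22.5% beyond 800 nt. Without strata, in a logistic regression with errors clustered by transcript over the transcripts with a site, the odds ratio was 1.08 (0.806 to 1.44), while with strata it was 0.0938 at a score of at least 0.7 and 0.530 with a limit of 50 nt.

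**Figure D3:**
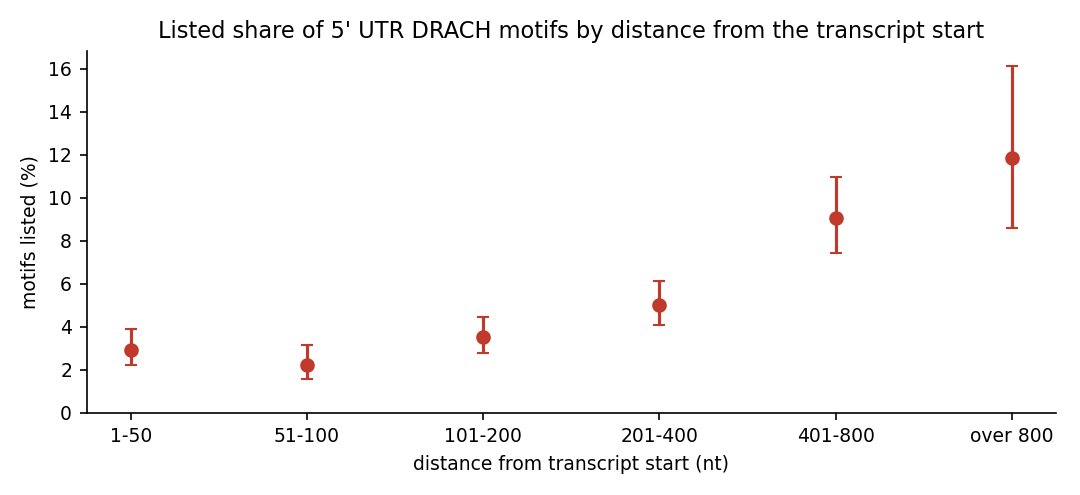
Share of 5' UTR DRACH motifs listed (%, y axis, with 95% Wilson intervals) by distance from the start of the canonical transcript (x axis, nt) in all host transcripts. The share lies between 2.22% and 2.94% in the 100 nt next to the start and at 11.8% beyond 800 nt.

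Motifs over 100 nt from a junction were listed more often than closer motifs of the same 5' UTR (odds ratio 2.51, 95% interval 1.57 to 4.02, n = 1554 motifs, adjusted p = 0.000165, conditional logistic regression). The contrast did not pass the test with a limit of 200 nt (1.31, 0.869 to 1.96) or in the clustered logistic regression (1.23, 0.930 to 1.63), and was 6.11 at a score of at least 0.7. Motifs in exon 1 were listed less often than those in later exons of the same 5' UTR (odds ratio 0.426, 0.245 to 0.739, n = 1554 motifs, adjusted p = 0.00301). That contrast did not pass the test in a model holding all 5' UTR contrasts together (0.707, 0.332 to 1.504), in the clustered logistic regression (0.970, 0.770 to 1.22) or at a score of at least 0.7 (0.382, 0.140 to 1.04), and was 0.266 with the longest spliced transcripts. Among GGACT motifs alone, the contrasts of exon 1 (0.290), the junction (3.41), the transcript start (0.277) and the start codon (2.65) kept their direction but did not pass the test. In the joint model, the transcript start (0.433, 0.245 to 0.764), the start codon (1.80, 1.20 to 2.72) and the junction (3.29, 1.85 to 5.82) still passed it. Over all host transcripts, the listed share was 4.52% in exon 1, 4.48% in exon 2 and 4.40% in later exons.

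GGACT had the largest odds ratio of the contrasts between classes of 5' UTR motifs, with odds 11.6 times those of the other DRACH pentamers in the same 5' UTR (95% interval 7.92 to 17.0, n = 1554 motifs, adjusted p = 1.39e-35, conditional logistic regression). The classifier took the sequence around the A as input. This contrast therefore describes which motifs were listed and cannot separate methylation from the classifier's use of sequence. Of the 758 GGACT motifs in 5' UTRs, 137 were listed (18.1%), compared with 22.6% in the CDS and 32.6% in 3' UTRs. The other 4 of the 5 pentamers with the most sites were GAACT with 48 sites (13.3% of its motifs), GGACA with 44 (6.40%), GGACC with 36 (2.69%) and AGACT with 32 (7.96%). GGACC was the commonest of the DRACH pentamers in these 5' UTRs, with 1339 motifs. In 3' UTRs, 15.7% of GGACC motifs were listed.

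Sites outside DRACH were rare among the listed 5' UTR sites. Sequence and region were inputs of the classifier, so the following shares describe the list and were not tested. Of the 373 sites with a full pentamer in the transcript, 15 were non-DRACH (4.02%, 95% Wilson interval 2.45 to 6.53%), whereas the shares were 10.9% of CDS sites and 11.8% of 3' UTR sites. GGACG, which differs from DRACH at the last base only, made up 11 of the 15, and GAACG and GTACT were found at 2 sites each. All 373 had C after the A. At a score of at least 0.7, none of the 96 remaining 5' UTR sites was non-DRACH, and the upper bound of that interval was 3.85%. Where 5 sites at the initial 1 or 2 nt of a transcript had no full pentamer, they were left out of these counts.

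An upstream open reading frame is a reading frame that starts at an ATG of the 5' UTR and can reduce translation of the main protein. Of the sites, 93 in 60 genes lay inside such a frame (24.6%). Over all host transcripts, 4.94% of the motifs inside and 4.37% of those outside were listed. Within transcripts, the odds ratio of inside against outside was 1.04 (95% interval 0.735 to 1.47, n = 1554 motifs, adjusted p = 0.827, conditional logistic regression). The local GC content gave 1.03 per 10 percentage points (0.849 to 1.26, n = 1554 motifs, adjusted p = 0.827). Both intervals include 1, but the upstream open reading frame contrast was 8.69 (1.02 to 74.4) among GGACT motifs and 0.634 (0.340 to 1.18) at a score of at least 0.7. The GC contrast was 1.19 (1.06 to 1.33) in a logistic regression clustered by transcript.

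The prediction scores of 5' UTR sites were the lowest of the 3 regions. The median was 0.620 (quartiles 0.560 and 0.701, highest 0.874), compared with 0.707 in the CDS and 0.801 in 3' UTRs. At GGACT alone, the medians were 0.665, 0.778 and 0.879. A score of at least 0.7 was reached by 25.4% of 5' UTR sites, 51.7% of CDS sites and 74.0% of 3' UTR sites, so raising the threshold to 0.7 reduced the 5' UTR share of all sites to 0.813%. Since the region was an input of the classifier, no test was made, and the score is not the fraction of transcripts that are methylated. Among 5' UTR sites, the median score was 0.569 within 100 nt of the transcript start and 0.642 farther away, 0.578 close to and 0.640 far from a junction, and 0.612 within 100 nt of the start codon against 0.636 farther from it.

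**Figure D4:**
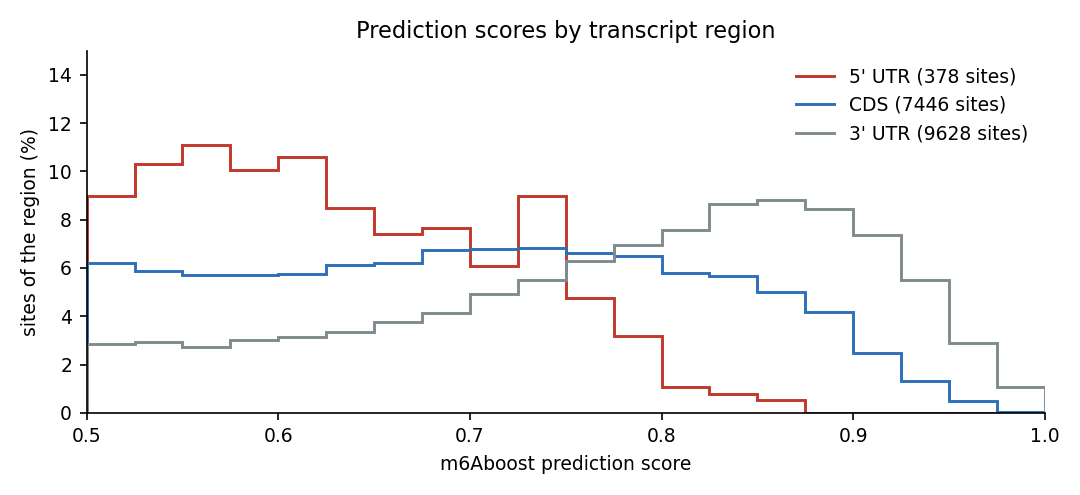
Percentage of the sites of a region (y axis) by m6Aboost prediction score (x axis, no unit, bins of 0.025) for 378 5' UTR sites, 7446 CDS sites and 9628 3' UTR sites. The 5' UTR scores gather toward the lower end, with a median of 0.620, and the 3' UTR scores toward the upper end, with a median of 0.801.

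The highest and lowest scores were found in genes of varied function. TNFRSF6B, which encodes a soluble decoy receptor for Fas ligand, had both top sites, with 0.874 at GGACC 3 nt before the start codon and 0.862 at GGACT at position 3 of the transcript. They lie at the ends of a 5' UTR of 116 nt. LARP1, a regulator of mRNAs with terminal oligopyrimidine tracts, followed with 0.848 at position 150. SNX33, a sorting nexin of endocytosis, reached 0.829 at GAACT, and SLC35A4 0.828 at AGACT. The lowest scores were 0.5004 in ST20-MTHFS, 0.501 in ALKBH2, a DNA repair dioxygenase, and 0.502 in SNRNP70, a U1 snRNP protein.

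Transcript starts accounted for a minority of the sites. Within 10 nt of the canonical start lay 20 sites in 20 genes, and 44 more were within 10 nt of the annotated start of another transcript only. Together these were 64 of 378 sites (16.9%), where 1390 of the 7953 DRACH motifs of 5' UTRs lay as close to an annotated start. Of these motifs 3.88% were listed (95% Wilson interval 2.99 to 5.03%), against 4.63% of the other 5' UTR motifs (4.15 to 5.17%), and the intervals overlapped. In transcripts with a 5' UTR site, which were selected for holding one, the order was the opposite. There 30.34% of motifs near an annotated start were listed (54 of 178, 24.06 to 37.45%), against 21.3% of the others (304 of 1427, 19.26 to 23.5%). The selection of transcripts can affect this order, so it does not show whether motifs near a start were listed more often. TAX1BP3 was listed at position 1, and UBL5, YWHAZ, EXOSC5 and COMMD9 at position 2. The 5' UTRs of these 20 genes were short, with a median of 57 nt compared with 353 nt for the other genes. Scores of the 64 sites had a median of 0.571, and the other 314 sites 0.637. An antibody signal from m6Am at a transcript start cannot be told apart from m6A in these data. Without sites and motifs within 10 nt of any annotated start, 314 sites remained (1.67% of all sites).

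At the start codon, 4 sites lay exactly 3 nt upstream, in TNFRSF6B, HCFC1, SIPA1L3 and IRF3, and the FAM3A site lay 2 nt upstream. The 5' UTRs of all host transcripts held 111 DRACH motifs at the position 3 nt upstream, so that 3.60% were listed (95% Wilson interval 1.41 to 8.90%), an interval that includes the 4.50% of all 5' UTR motifs. The scores were 0.874, 0.729, 0.714 and 0.709 in that order, and 0.522 in FAM3A. HCFC1 is a chromatin-associated cofactor of transcription and IRF3 a transcription factor of the antiviral interferon response. The sites farthest from the transcript start were in MARCHF4, a membrane-bound ubiquitin ligase, at 2182 nt, and in BRD2, at 1726 and 1694 nt.

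Genes with 5' UTR sites mostly had 1 of them. This held for 175 of the 240 genes, while 33 had 2, 13 had 3 and 19 had at least 4, the last group with 98 sites. Their 5' UTRs were long, with a median of 313.5 nt against 114 nt in the 3392 genes with sites elsewhere only, and held a median of 5 DRACH motifs against 1. The median GC content was 66.6% and 70.8%, respectively. Sites in the CDS were also listed in 164 of these genes and sites in the 3' UTR in 148, and 46 genes (19.2%) had no site outside the 5' UTR. A gene needs a motif to carry a DRACH site, so the 5' UTR lengths follow in part from the choice of the genes.

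The tumour suppressor kinase STK11 (chromosome 19) had the most sites, at 9 of the 21 DRACH motifs of its 5' UTR. They lay between 592 and 1123 nt of a 5' UTR of 1136 nt, all in exon 1, and 3 of them within 41 nt of the start codon. Scores went from 0.547 to 0.778, and no site was listed in the initial 591 nt. SNX33 (chromosome 15) had 8 sites at 24 motifs in a 5' UTR of 1191 nt, scored between 0.503 and 0.829. ST3GAL2, a sialyltransferase, had 7 at 26 motifs, all in exon 2, and 6 of them lay in upstream open reading frames. HCFC1 (chromosome X) had 7, of which 6 were DRACH and 1 was GGACG, with scores between 0.563 and 0.753 along a 5' UTR of 978 nt.

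WDR24, a subunit of the GATOR2 complex that signals amino acid supply to mTORC1, had 6 sites, all in exon 1, with scores of 0.505 to 0.743. The other genes with 5 sites were SLC35A4, LRFN3, GPAT4, TGFB1 and FBRS. The 5 sites of SLC35A4, printed above, scored 0.732, 0.627, 0.828, 0.668 and 0.808 in order from the transcript start, so the last 3, which lay 152 to 196 nt before the start codon, included both highest values. LRFN3, a neuronal adhesion protein gene, was listed at 5 of 48 motifs, the lowest share among these 10 genes (10.4%), and HCFC1 had the highest (46.2%). In TGFB1, the gene of the growth factor TGF-beta 1, all 5 sites lay in exon 1 between 290 and 503 nt, outside any upstream open reading frame, and 4 of them scored between 0.719 and 0.785. GPAT4, a glycerol-3-phosphate acyltransferase gene, had sites in 2 groups, at 250 and 330 nt and at 796 to 864 nt.

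**Figure D5:**
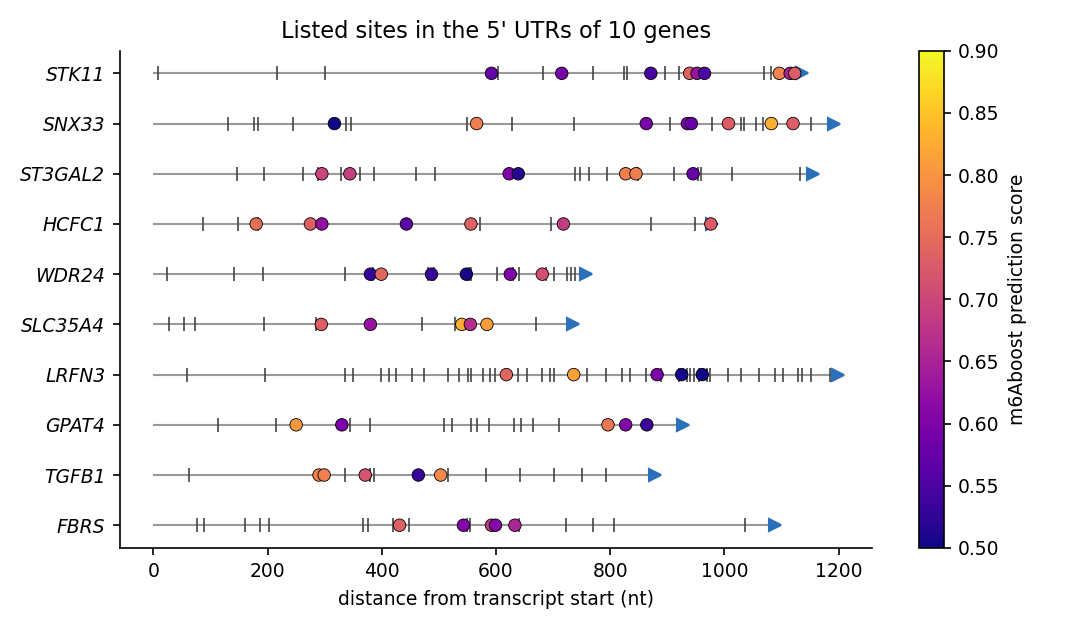
5' UTRs of the 10 genes with the most 5' UTR sites, drawn to scale by distance from the transcript start (x axis, nt), with the start codon as a blue arrowhead. Filled circles are listed sites coloured by prediction score and small ticks are unlisted DRACH motifs; in STK11 the 9 sites lie between 592 and 1123 nt.

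Host genes were grouped by function, with the share of genes carrying a 5' UTR site among all host genes of a list. Over all host genes this share was 6.61% (240 of 3632). The shares of the lists were not set against 5' UTR length or motif number. Genes of heparan and chondroitin sulfate synthesis, whose products build the sugar chains of proteoglycans, had the highest share of the lists, with 5 of 16 (31.2%) and 13 sites. Of these, NDST1, which carries out the initial modification of the heparan sulfate chain, was scored 0.766, 0.753 and 0.612 at 3 sites in exon 2. HS3ST3A1, a 3-O-sulfotransferase gene, had 3 sites scored 0.654 to 0.768 and no site elsewhere. CHPF2, a chondroitin polymerizing factor, had 3 sites scored 0.526 to 0.616, and the exostosin genes EXT1 and EXTL3 had 2 each, of which the last in either gene lay 4 nt before the start codon. The 5' UTRs of NDST1, HS3ST3A1 and CHPF2 were 483, 800 and 1529 nt long, against a median of 313.5 nt in genes with 5' UTR sites.

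In the integrated stress response and unfolded protein response list, 2 of 15 host genes (13.3%) had 5' UTR sites. NFE2L1, a transcription factor of proteasome genes, had 4 with scores of 0.533 to 0.770, and EIF2B4, a subunit of the nucleotide exchange factor eIF2B, had 1 (0.571). Of the 9 host genes known for upstream open reading frames, SLC35A4 was the only gene with 5' UTR sites. The list labelled translation initiation had 2 of 19, namely EIF4A3 (0.665), which is a component of the exon junction complex, and PABPC1 (0.516). Receptor tyrosine kinase and growth factor signalling had 3 of 29 and the TGF-beta, WNT, NOTCH and Hippo list 2 of 20. The signalling genes were PIK3R2 (0.527 and 0.609), PDGFRB (0.531 and 0.541), FGFR1 (0.735), TGFB1 and SMAD3 (0.662), which encode a phosphoinositide 3-kinase subunit, 2 growth factor receptors, a ligand and a signal transducer.

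Shares close to or below that of all host genes were found for the transcription factor families, with 3 of 43 genes, for splicing proteins, with 1 of 15, and for chromatin modifiers and remodellers, with 1 of 33. The transcription factors were RARA (4 sites, 0.601 to 0.701), NR2F2 (0.663 and 0.686) and FOXJ2 (0.742), of which RARA is the retinoic acid receptor alpha. RBM10, a splicing regulator, scored 0.707 at position 157. BRD2, a bromodomain protein, had 4 sites in exon 2 scored 0.599 to 0.761. Of the m6A writers, readers and erasers, 2 had any listed site and 0 had one in the 5' UTR. These are counts of few genes, and whether a list stood apart from the other genes was not tested.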

How the data were processed

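Sites were read from the list of m6A positions deposited by the authors, whose score column holds a fraction between 0 and 1, the m6Aboost prediction score. According to the submitters' notes and methods, reads were aligned to GRCh38 with STAR 2.7.3a, handled with SAMtools 1.9 and bedtools 2.27.1, and duplicates were removed with UMI-tools 1.0.0. Peaks were called with PureCLIP on each replicate, kept where found in at least 2 replicates and classified by sequence, region, C-to-T transitions and relative signal. The list is merged over the 3 replicates, with no read counts or rejected peaks, which leaves the depth behind a site unknown and allows no comparison between cultures. Its region labels came from any isoform, whereas here the canonical transcript of GENCODE 44 was used. Sites exonic in several genes (11 of the 378) were assigned to genes that are not readthrough, then to the longest transcript.

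DRACH motifs were compared by exact conditional logistic regression (R 4.3.3, survival 3.8.3) with the transcript as stratum, Wald intervals and two-sided p-values adjusted by Benjamini-Hochberg over 10 contrasts. Only the contrast of 5' UTR motifs far from a junction was also run on simulated data, and the other contrasts were not. Shares have 95% Wilson intervals (scipy 1.17.1), which cover counting error only. Named genes were the 10 holding most sites, those of the 5 highest-scoring and 3 lowest-scoring sites, the 3 nearest to the transcript start, nearest to the start codon and farthest from the transcript start (with ties), the commonest 5 DRACH and 3 non-DRACH pentamers, and members of 11 lists of genes with a 5' UTR site, of which 1 list is not reported here. Members, lists and contrasts were chosen with earlier results of these data known.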

Additional observations from a re-analysis of the deposited data

How the results depend on the processing

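The 10 contrasts were refitted under up to 12 alternatives each, and of these 105 refits 87 kept their direction and their side of the threshold. Both comparisons of regions (odds ratios 0.248 to 0.720 against the CDS and 0.0858 to 0.458 against the 3' UTR), the junction product (0.202 to 0.426) and GGACT (9.69 to 12.6) did so in every alternative run. With logistic regression clustered by transcript in place of strata, the odds ratio was 1.23 for motifs far from a junction, 1.08 (reversed) near the transcript start, 0.970 in exon 1, 0.957 (reversed) in upstream open reading frames and 1.19 for GC content, which alone of these passed the threshold. With GGACT motifs only, it was 3.41 far from a junction, 0.277 near the transcript start, 2.65 near the start codon, 0.290 in exon 1, 8.69 in upstream open reading frames, now past the threshold, and 0.645 (reversed) for GC content. The other values of these fits, which rest on fewer motifs, did not pass it. The values that follow did not pass it either. A score of at least 0.7 gave 0.382 in exon 1 and 0.634 (reversed) in upstream open reading frames. A window of 200 nt gave 1.31 far from a junction, and all contrasts in 1 model 0.707 in exon 1. The longest spliced transcripts gave 0.958 (reversed) in upstream open reading frames, and GC content gave 0.858 with RAC motifs and 0.908 over 41 nt (both reversed). Among the untested values, the 5' UTR share of all sites moved to 0.813% at a score of at least 0.7 and to 1.67% without sites near any transcript start, and the non-DRACH share to 0% at a score of at least 0.7. For the remaining changes the cause was not tested. Leaving out the last 221 entries of the list, which follow the mitochondrial entries, was chosen after seeing the data and changed no call. Replicates could not be left out because the list pools them. No paired analysis was possible because the samples form 1 group.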
